A study of Mus musculus with 12 samples.

Results

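Magnesium hydride (MgH2) releases molecular hydrogen (H2) when it meets water, so that a gavage of the powder delivers H2 in the stomach. The values described here are the 3 microarrays that set liver RNA of mice given MgH2 for 7 days against liver RNA of control mice, out of 12 arrays in the study. The 3 arrays were taken by their sample labels alone, and no measured value entered the choice. All mice were male db/db animals, 8 weeks old, a strain without a functional leptin receptor that becomes obese, insulin resistant and fatty in the liver. The treated group received MgH2 by stomach tube once a day, at 0.9 mg per kg per the labels. The study's methods name only higher doses for mice, so that labels and methods differ. Controls received magnesium hydroxide, Mg(OH)2, the product that is left after MgH2 has reacted. Per the methods, RNA from 9 mice of a group was combined into 3 pools of 3 mice, and each array compared 1 treated pool, labelled with Cy5, with 1 control pool, labelled with Cy3. The other arrays were made in the same way after 1 and 3 days of MgH2 and after 14 days of drinking water with dissolved H2 (0.8 mM) against degassed water, with 3 arrays in each group. Only the db/db strain was on the arrays, so nothing here bears on lean mice.

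In the liver, carbohydrate is turned into fat by de novo lipogenesis. Pyruvate kinase makes pyruvate, from which citrate and then acetyl-CoA arise. Acetyl-CoA carboxylase and fatty acid synthase use acetyl-CoA to build fatty acids, which elongases and desaturases then finish. The transcription factors SREBP-1c and ChREBP, which respond to insulin and to glucose, drive these genes, and the pathway is highly active in the liver of db/db mice. Fasting works in the opposite direction: the nuclear receptor PPAR alpha, with its coactivator PGC-1 alpha, turns on fatty acid oxidation, ketone body synthesis and the hormone FGF21. The study asked how gene expression and phenotype follow each other in time when H2 is taken in, and among its arrays those of 7 days have the longest time with MgH2.

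On the 3 arrays, 51.8% to 53.2% of the non-control spots were well above background in both channels, no tested spot was saturated, and 165 to 184 spots were marked by the scanner software and left out. The number of arrays limits the precision. The dye was never swapped: the treated pool was always red, and a dye effect of a probe and an effect of MgH2 cannot be told apart in the ratio at 7 days, whereas a difference between 2 groups of arrays cancels a dye effect that is constant. Arrays 1 and 2 lay on a slide with 2 arrays of 3 days, and array 3 lay on a slide of its own, so slide and time are partly confounded. The Cy3 signals of same-numbered arrays of 7 days and of 1 or 3 days deviated together (r from 0.745 to 0.871 over probes), more than between the 3 arrays of 7 days (0.511 to 0.659). Whether the MgH2 groups shared control pools is not given in the sources used here. The main fit took the arrays as independent, so the adjusted p values between MgH2 times leave this dependence out. A fit that pairs same-numbered MgH2 arrays, the replicate block, was an alternative.

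A probe was called changed when the mean log2 ratio of MgH2 over control differed from 0 at an adjusted p under 0.05 in a limma fit over all 12 arrays. Of 19455 probes above background in both channels on the 3 arrays, 5748 were called (29.5%): 2973 higher (15.3%) and 2775 lower (14.3%). With both channels of each array divided by their totals the split turned, at 2370 higher and 3371 lower. With 1 probe per gene, 3766 of 11968 genes were called (31.5%), 1980 higher (16.5%) and 1786 lower (14.9%). These shares are the background against which each gene list below is read. The changes were small: the median absolute log2 ratio of a called probe was 0.28, a fold of 1.21, and 54 called probes went beyond 2-fold, 26 of them higher. Counted by gene, 10 were higher and 23 lower beyond 2-fold. The counts depended on single arrays, with 1796 probes higher and 1724 lower without array 1, and 1563 higher and 1533 lower without array 3. The size of the count also rests on the model: the unpaired test per probe that the study's methods name called 2568 probes higher and 2349 lower before any adjustment, and 40 and 20 after Benjamini-Hochberg adjustment.

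**Figure D1:**
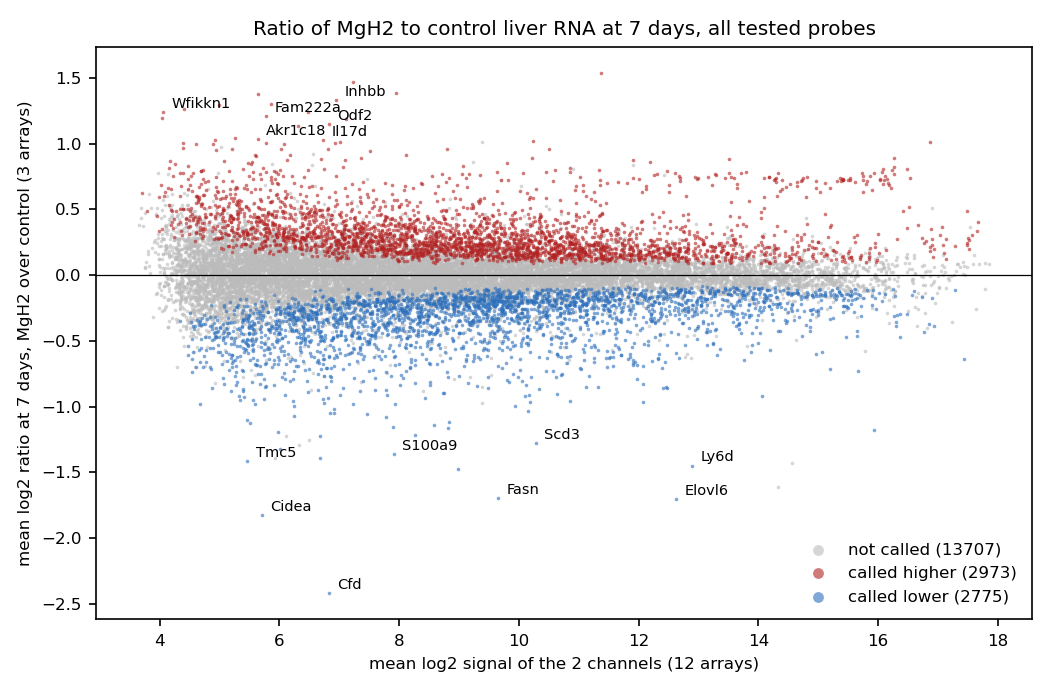
Each point is 1 of the 19455 tested probes, with its mean log2 signal over both channels on the horizontal axis and its mean log2 ratio at 7 days on the vertical axis, red where called higher (2973) and blue where called lower (2775). Falls reach further from 0 than rises, and a band of bright probes lies near a ratio of 0.7.

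Among the genes that rose most were some that encode secreted proteins, metal and lipid handling proteins and a steroid-metabolising enzyme. In what follows, the values of a gene are its log2 ratios on arrays 1, 2 and 3, then their mean ± the standard error of the fit (n = 3). Inhbb, which encodes the beta B subunit of activin and inhibin, rose evenly, at 1.39, 1.21 and 1.41 (mean 1.33 ± 0.14, adjusted p = 2.1e-04).

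Wfikkn1, an extracellular binder of growth factors of the TGF-beta family, rose by 1.24 ± 0.12. Mt1, metallothionein 1, which binds zinc and is induced by glucocorticoids, had ratios of 1.16, 1.25 and 0.64 (1.02 ± 0.22). Plin4, a coat protein of lipid droplets, had ratios of 1.39, 0.68 and 0.99 (1.02 ± 0.24), and its call was lost without array 1 (0.83, adjusted p = 0.075) or array 3 (1.03, adjusted p = 0.050). Akr1c18, a hydroxysteroid dehydrogenase that inactivates progesterone, rose by 1.04 ± 0.11, and Il17d, a cytokine of the interleukin 17 family, by 1.03 ± 0.061. Both had means of like size after 1 day (1.40 and 0.88) and 3 days (1.33 and 0.92), and their differences between 7 days and 1 day were not called (−0.37 and 0.15). Another probe of Il17d was not called (−0.22). Other large rises were those of Fam222a (1.21), Odf2 (1.15), Ptar1 (1.00), Unc79 (1.00) and Dnajb11 (0.99), all dim probes, and the call of Dnajb11 was lost without array 3 (0.90, adjusted p = 0.058). Some sizes rested on the processing. Over the alternatives that left out no array of 7 days, the lowest mean was 0.30 for Akr1c18, 0.30 for Dnajb11 and 0.53 for Fam222a, each still called.

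The 12 largest falls held 4 enzymes of fatty acid synthesis and desaturation, 2 genes that are typical of fat tissue and 2 interferon-induced genes. Cfd encodes adipsin, the complement factor D secreted by adipocytes and by fatty liver. Its log2 ratios of −0.90, −3.44 and −2.92 gave a mean of −2.42 ± 0.76 (adjusted p = 0.038), and its call was lost without array 2 (−1.91, adjusted p = 0.18) or array 3 (−2.17, adjusted p = 0.16). Cidea, which fuses lipid droplets into larger ones, had ratios of −0.38, −2.71 and −2.38 (−1.82 ± 0.58, adjusted p = 0.040), and its call was likewise lost without array 2 (−1.38, adjusted p = 0.20) or array 3 (−1.54, adjusted p = 0.19). For both genes the arrays differed mainly in the control channel, as processed intensities that are not scaled between arrays show. The control intensity of Cfd was 69.2, 543 and 380 on arrays 1, 2 and 3, against 37.2, 50.2 and 50.1 in the MgH2 channel. That of Cidea was 38.9, 194 and 146, against 30.0, 29.6 and 28.0.

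Elovl6, the elongase that makes stearic from palmitic acid, fell more evenly. It had ratios of −1.26, −1.86 and −1.99 (−1.70 ± 0.25, adjusted p = 0.0012), 3.26-fold below the control level, and Scd3, a stearoyl-CoA desaturase, fell by 1.27 on the log2 scale. Ly6d, a small cell surface protein anchored in the membrane by a lipid, fell by 1.45 ± 0.11 (ratios −1.42, −1.22 and −1.71) and S100a9, a calcium-binding protein of neutrophils, by 1.36 ± 0.23. Ly6d was near 0 after 1 day (−0.05) and at −0.56 after 3 days. The remaining genes were Tmc5 (−1.42), Nrep (−1.22), Ifit1 (−1.19), Scd1 (−1.18), Ifi27l2a (−1.16) and Fasn, described below, and the call of Nrep was lost without any 1 of the 3 arrays (adjusted p from 0.12 to 0.16).

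**Figure D2:**
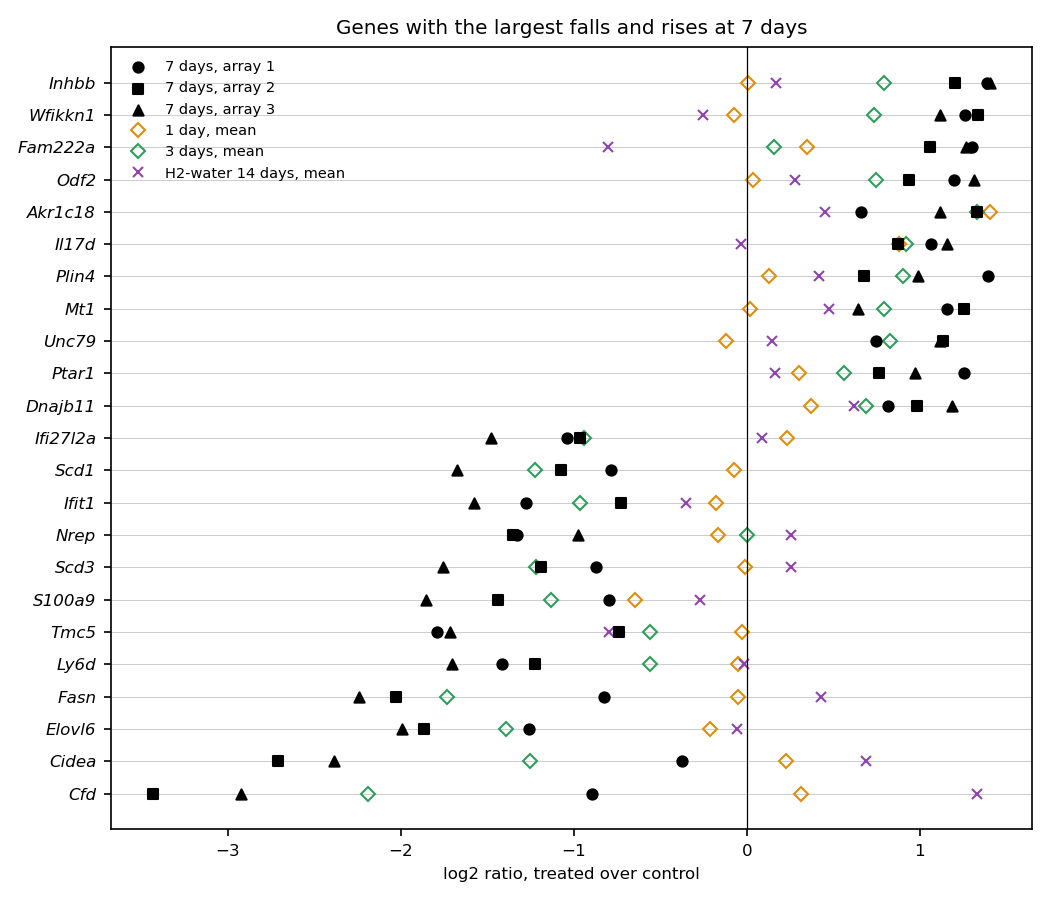
Log2 ratio of MgH2 over control for genes that rose most and the 12 that fell most at 7 days, with the 3 arrays as filled symbols and the means of 1 day, 3 days and 14 days of H2-water as open symbols and crosses. For most falls the mean of 3 days lies near the arrays of 7 days, while 1 day and 14 days lie near 0.

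The genes of de novo lipogenesis and desaturation formed the clearest metabolic group. Of 21 tested members 13 were called lower and 1 higher, with a median log2 ratio of −0.53, against 14.9% lower and 16.5% higher and a median of 0.0087 over all genes. The median was −0.21 on array 1, −0.70 on array 2 and −0.73 on array 3. With array 3 left out 8 members were called lower, with array 1 left out 13, and with array 2 left out 11. With the replicate number as a block 17 were lower and 2 higher. Pnpla3 is on the list but was not above background on all arrays.

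Fasn, fatty acid synthase itself, had log2 ratios of −0.82, −2.03 and −2.24 (mean −1.70 ± 0.37, adjusted p = 0.0075). Array 1 stood apart from arrays 2 and 3, and without array 3 the mean was −1.43 and the call was lost (adjusted p = 0.062). Here too the control channel varied more, at intensities of 661, 1843 and 1576 against 373, 452 and 333 with MgH2. Scd1, the main desaturase of the liver, which makes oleic acid, had ratios of −0.78, −1.07 and −1.67 (−1.18 ± 0.20, adjusted p = 0.0026). Pklr, the liver pyruvate kinase and a classic ChREBP target, had ratios of −0.83, −0.89 and −1.27 (−1.0 ± 0.14, adjusted p = 8.4e-04).

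The regulators fell as well, which is given here to account for the whole list and was not fixed by the rule for named genes. Srebf1, which encodes SREBP-1c, had ratios of −0.78, −0.77 and −1.04 (−0.86 ± 0.12), and Mlxipl, which encodes ChREBP, of −0.44, −0.16 and −0.66 (−0.42 ± 0.08). Both acetyl-CoA carboxylases fell, Acaca by 0.85 ± 0.16 and Acacb by 0.83 ± 0.087. The suppliers of carbon and reducing power changed less: ATP citrate lyase, Acly, and malic enzyme, Me1, both had a mean of −0.53. The remaining calls were Elovl5 (−0.44), Fads2 (−0.27) and Agpat2 (−0.24). Lpin1, a phosphatidate phosphatase that also coactivates PPAR alpha and is induced by fasting, was the member that rose (0.96, 0.24 and 0.83, mean 0.68 ± 0.18), and its call was lost without array 1 (0.54, adjusted p = 0.11) or array 3 (0.60, adjusted p = 0.10).

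Scd2 (0.05, −0.84 and −1.86), Gpam (−0.03, −1.06 and −1.15) and Thrsp (0.20, −1.01 and −0.93) had large means that did not pass the test, since array 1 was near or above 0. Acss2 (−0.34), Dgat2 (−0.07), Fads1 (−0.04) and Dgat1 (0.13) were not called either. Dgat1 and Dgat2 are the acyltransferases that make triglyceride at the end of the pathway.

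**Figure D3:**
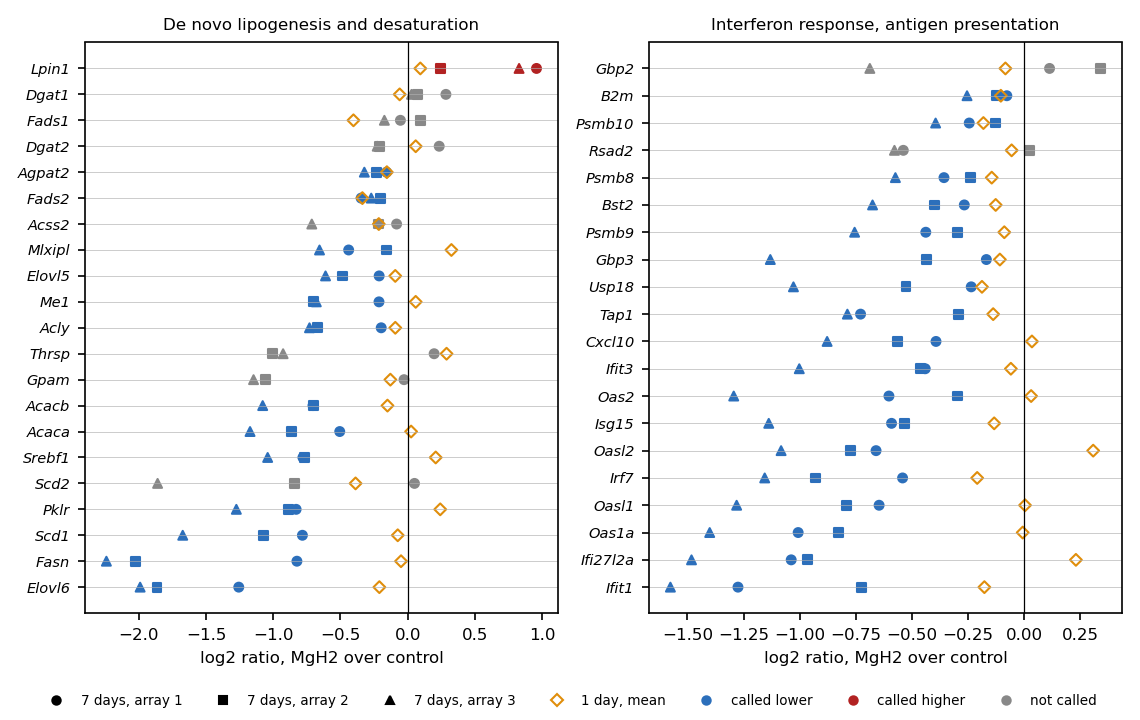
Log2 ratio of MgH2 over control for every tested member of the lipogenesis list (left) and the interferon list (right), with the 3 arrays of 7 days as filled symbols, blue where called lower, red where called higher and grey where not called, and the mean of 1 day as an open diamond. Array 3 is the lowest for most members of both lists, while the diamonds lie nearer to 0 than the mean of 7 days for most members (not for Fads1, Fads2 and Gbp2), between −0.40 (Fads1) and 0.33 (Mlxipl).

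Genes of lipid droplets, triglyceride turnover and lipoproteins moved in both directions, with 5 of 28 called higher and 10 lower and a median of −0.12. The 3 that rose most were droplet proteins and a lipase. Besides Plin4, Plin5, the perilipin that tethers droplets to mitochondria, had ratios of 0.83, 0.86 and 0.96 (0.88 ± 0.12, adjusted p = 6.5e-04). Pnpla2, the adipose triglyceride lipase, had 0.67, 0.45 and 0.53 (0.55 ± 0.052, adjusted p = 1.0e-04), and was chosen after its values were seen. Fabp1, the abundant fatty acid binding protein of liver and a PPAR alpha target, fell with ratios of −0.64, −0.75 and −0.53 (−0.64 ± 0.073, adjusted p = 3.1e-04).

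Mogat1, which makes diacylglycerol, had ratios of −0.08, −1.0 and −0.83 (−0.64 ± 0.18), an order of arrays like that of Cidea, and its call was lost without array 2 (−0.46, adjusted p = 0.15) or array 3 (−0.54, adjusted p = 0.14). Apoe was at 0.33 ± 0.042. It was about as high after 1 day (0.32, 0.15 and 0.25), 3 days (0.29, 0.22 and 0.32) and 14 days (0.31, 0.30 and 0.26). For such a gene dye and treatment cannot be told apart. Fewer members were called lower without array 2 or array 3 (4 each) and fewer higher without array 1 or array 3 (3 each).

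The PPAR alpha targets, a group that the study followed, were split. Of 42 tested targets 12 were called higher and 10 lower, against 16.5% and 14.9% of all genes, with a median log2 ratio of −0.05. Those that rose included Plin5, Cpt1a, Angptl4, which inhibits lipoprotein lipase (0.75, 0.54 and 0.49, mean 0.59 ± 0.13), and the microsomal fatty acid hydroxylases Cyp4a14 (0.36), Cyp4a10 (0.28) and Cyp4a32 (0.23). Those that fell included Cidea, Fabp1, Ucp2, an uncoupling protein (−0.55), the peroxisomal thiolase Acaa1b (−0.47), the droplet coat Plin2 (−0.35) and Vnn1, pantetheinase (−0.34). The counts dropped to 5 higher and 9 lower without array 1, 10 and 7 without array 2, and 7 and 6 without array 3. The hydroxylases rested on array 1: without it Cyp4a14 was at 0.17 (adjusted p = 0.18), Cyp4a10 at 0.14 (adjusted p = 0.23) and Cyp4a32 at 0.15 (adjusted p = 0.12). Without array 3, Cyp4a14 (adjusted p = 0.066) and Cyp4a10 (adjusted p = 0.090) were not called. Angptl4 was also just lost without array 1 (0.52, adjusted p = 0.051).

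Ppargc1a, which encodes PGC-1 alpha, rose, with log2 ratios of 0.98, 0.60 and 0.74 (0.77 ± 0.17, adjusted p = 0.0077), a fold of 1.71. Its intensities were 572, 426 and 563 in the control channel and 1129, 648 and 938 in the MgH2 channel, so that MgH2 was the higher on each array. Another probe of the gene was also called, at 1.30. Without array 1 the brighter probe missed the threshold (0.67, adjusted p = 0.055). Its mean was 0.07 after 1 day, 0.58 after 3 days and −0.01 after 14 days of H2-water. The differences of 7 days from 1 day (0.70, adjusted p = 0.10) and from 14 days (0.78, adjusted p = 0.075) did not pass the test.

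Among the 21 tested coactivators and nuclear receptor partners, Nrf1, a nuclear factor that drives genes of the mitochondrial respiratory chain, rose with ratios of 0.44, 0.46 and 0.54 (0.48 ± 0.035, adjusted p = 1.1e-05). Nr0b2, the corepressor SHP (−0.55), Thrb, a thyroid hormone receptor (−0.24), and Nr1h2, an oxysterol receptor (−0.14), fell. The call of Nr0b2 was lost without array 1 (−0.60, adjusted p = 0.067) or array 3 (−0.34, adjusted p = 0.18), and that of Thrb without array 1 (adjusted p = 0.057) or array 3 (adjusted p = 0.062). Ppara itself was not called (0.16, −0.26 and −0.33), though it was with the replicate number as a block (−0.14, adjusted p = 0.048). Foxo1 was not called (0.36, −0.02 and −0.03).

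Cpt1a, the carnitine palmitoyltransferase that admits fatty acids to mitochondria, rose evenly, with ratios of 0.41, 0.38 and 0.47 (0.42 ± 0.044, adjusted p = 2.0e-04), or 1.34 times the control. A dimmer probe of the gene was not called (0.10). In mitochondrial fatty acid oxidation and ketogenesis as a whole, 5 of 23 members were called in each direction, with a median of −0.01. Besides Cpt1a these included Etfdh (0.23), Eci2 (0.22), Hadhb (0.17) and Acadl (0.16) on the higher side, and Decr1 (−0.24), Acat1 (−0.18), Bdh1 (−0.17) and Hadh (−0.16) on the lower side. Eci2 was lost without array 3 (0.19, adjusted p = 0.074). In peroxisomal oxidation 1 of 19 was higher, Acox2 (0.18), and 4 were lower, led by Acaa1b (−0.21, −0.65 and −0.55), and the call of Acox2 was lost without any 1 of the arrays (adjusted p from 0.085 to 0.23) and with the replicate block (adjusted p = 0.053), under which 1 peroxisomal gene was higher and 7 lower. With channels divided by their totals or arrays centred, no peroxisomal gene was higher and 5 were lower.

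Fgf21, the fasting hormone that the study followed, was too dim for the test. Its Cy5 signal was above background on all 3 arrays and its Cy3 signal on none. The Cy3 intensities were 7.66, 8.22 and 5.40, and the Cy5 intensities 35.4, 15.4 and 15.3. Set against the lowest signal that counts as above background, Fgf21 was at least 2.07-fold higher with MgH2 on the mean of the 3 arrays. This is not a bound for each array. With no filter on dim probes the mean log2 ratio was 1.54 (2.21, 0.90 and 1.5), with an adjusted p of 0.046. In the other groups its ratio was −0.15 after 1 day, 0.60 after 3 days and 1.34 after 14 days.

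Of the other genes named in the study, Aldh1a1 (0.28 ± 0.037), Aldh1l1 (0.28 ± 0.077) and Pck1 (0.31 ± 0.079), the cytosolic phosphoenolpyruvate carboxykinase of gluconeogenesis, were called higher. Dbi, the acyl-CoA binding protein (−0.30, −0.40 and −0.59, mean −0.43 ± 0.06), Fads2 and the fatty aldehyde dehydrogenase Aldh3a2 (−0.23 ± 0.044) were called lower. In all, 8 of the 20 tested were higher and 4 lower. Pck1 was lost without any 1 of the arrays (adjusted p from 0.052 to 0.085), Aldh1l1 without array 1 (0.22, adjusted p = 0.13) or array 2 (0.25, adjusted p = 0.10), and Fads2 without array 1 (−0.24, adjusted p = 0.083) or array 3 (−0.28, adjusted p = 0.063). G6pc (−0.11), Acaa1a (−0.05), Eci1 (0.02), Apoa2 (0.09) and Cyp4a31 (0.21) did not pass the test.

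The interferon response was the group with the highest share of calls among the pathway lists. Interferons act through STAT factors and IRF9, which bind a response element with paired GAAA blocks in the promoters of antiviral genes. Of 20 tested members of the list of interferon-induced and antigen presentation genes 18 were called lower and 0 higher, with a median log2 ratio of −0.61. Array medians were −0.49, −0.45 and −1.01. Without array 1 there were 15 calls, without array 2 14 and without array 3 8. Among those that could not be tested were Ifi44, Ifit2, Mx1 and Mx2, which were not above background throughout.

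Promoters of 4 members that hold this element are shown, so that its number and place can be compared among them. Each is 300 bases of RefSeq sequence (GRCm38.p6) in the direction of the gene, from 250 before the start to 50 after it, and the capitals mark matches to GAAA, any 2 bases and GAAA on either strand, overlapping matches included. The 4 stretches are Ifit1 at chr19:34640639-34640938 on the plus strand, and on the minus strand Isg15 at chr4:156200769-156201068, Oas1a at chr5:120907476-120907775 and Cxcl10 at chr5:92348840-92349139.
Ifit1: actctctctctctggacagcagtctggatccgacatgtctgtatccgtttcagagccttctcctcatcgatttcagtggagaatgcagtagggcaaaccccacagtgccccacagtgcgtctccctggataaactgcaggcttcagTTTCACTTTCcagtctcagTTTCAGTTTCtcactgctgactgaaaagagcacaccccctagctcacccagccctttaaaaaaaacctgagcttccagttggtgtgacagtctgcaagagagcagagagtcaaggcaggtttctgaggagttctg
Isg15: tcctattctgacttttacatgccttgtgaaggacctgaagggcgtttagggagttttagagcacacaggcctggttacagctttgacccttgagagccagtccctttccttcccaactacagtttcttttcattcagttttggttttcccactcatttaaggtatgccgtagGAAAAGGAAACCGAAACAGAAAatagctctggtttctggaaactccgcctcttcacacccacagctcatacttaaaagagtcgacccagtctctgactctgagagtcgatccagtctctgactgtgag
Oas1a: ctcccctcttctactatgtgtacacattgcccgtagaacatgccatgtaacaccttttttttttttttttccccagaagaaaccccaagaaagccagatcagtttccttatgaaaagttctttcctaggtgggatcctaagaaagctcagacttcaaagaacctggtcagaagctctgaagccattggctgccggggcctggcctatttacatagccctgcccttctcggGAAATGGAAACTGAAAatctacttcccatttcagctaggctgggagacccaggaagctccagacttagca
Cxcl10: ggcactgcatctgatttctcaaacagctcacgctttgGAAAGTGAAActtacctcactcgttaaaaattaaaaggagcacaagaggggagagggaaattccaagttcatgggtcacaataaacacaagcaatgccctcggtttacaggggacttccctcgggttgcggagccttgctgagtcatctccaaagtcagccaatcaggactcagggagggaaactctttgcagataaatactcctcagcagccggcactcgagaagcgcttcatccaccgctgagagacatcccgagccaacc
Ifit1 carried 2 separate matches, Isg15 a run of 3 overlapping ones, Oas1a 2 overlapping ones just before the start and Cxcl10 a single one far upstream.

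Promoters were at hand for 17 of the tested members, and 10 of these held the letters (58.8%), against 3.99% of 27025 genes and 3.44% of 32851 promoters. They were B2m, Bst2, Cxcl10, Gbp2, Gbp3, Ifit1, Ifit3, Isg15, Oas1a and Rsad2. Gbp2 and Rsad2 held the match and were not called. The other 7 had no match (Irf7, Oasl1, Oasl2, Psmb8, Psmb9, Psmb10 and Tap1). Of the other elements searched on both strands, the sterol regulatory element (TCACNCCAC) was in 1 of 16 lipogenesis promoters and 1 of 18 of cholesterol synthesis, against 1.44% of genes. The E-box (CACGTG) was in 2 of 16 lipogenesis promoters (8.09% of genes), the PPAR response element in 1 of 33 of PPAR alpha targets (0.451%) and the glucocorticoid response element (ACANNNTGT) in 4 of 16 of the glucocorticoid list (7.9%). A match is a description of letters and shows no binding.

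Ifit1, which blocks translation of viral RNA, had log2 ratios of −1.27, −0.73 and −1.58 (−1.19 ± 0.17, adjusted p = 9.4e-04). Oas1a, an oligoadenylate synthetase that activates RNase L, had −1.01, −0.83 and −1.40 (−1.08 ± 0.21, adjusted p = 0.0042), and Oasl1, its inactive relative that restrains Irf7, had −0.65, −0.79 and −1.28 (−0.91 ± 0.12). Ifi27l2a fell by 1.16 ± 0.28, and its call was lost without array 3 (−1.0, adjusted p = 0.081). Array 3 was the lowest for each of these genes. Isg15, the ubiquitin-like modifier (−0.59, −0.53 and −1.14, mean −0.75), Irf7, the master factor of type I interferon (−0.88), and Cxcl10, the T cell chemokine (−0.39, −0.56 and −0.88, mean −0.61), are given to account for the list.

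The other calls were Oasl2 (−0.84), Oas2 (−0.73), Ifit3 (−0.64), Tap1 (−0.60), Usp18 (−0.60), Gbp3 (−0.58), Bst2 (−0.45) and the immunoproteasome subunits Psmb9 (−0.50), Psmb8 (−0.39) and Psmb10 (−0.26). B2m, the light chain of class I molecules and the brightest member, fell least (−0.15), and its call was lost without array 2 (−0.17, adjusted p = 0.063) or array 3 (−0.10, adjusted p = 0.18), as was that of Psmb10 without array 3 (−0.19, adjusted p = 0.055). Rsad2 (−0.54, 0.02 and −0.58) and Gbp2 (0.11, 0.34 and −0.69) were the members without a call. Zbp1, a sensor of Z-form nucleic acid that interferon induces, was above background in the control channel alone. On the mean of the 3 arrays it was at least 2.72-fold lower with MgH2 (ratios −2.10, −1.11 and −1.59), which is not a bound for each array. The gene was chosen after its values were seen.

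Markers of liver macrophages and leukocytes were also lower. Of 16 tested markers 8 were called lower and 0 higher (median −0.39, with −0.33, −0.32 and −0.52 on the arrays), and 6 were lower without array 2 or without array 3. The median was already −0.19 after 1 day and −0.36 after 3 days. Against 1 day 1 of 16 was lower and 0 higher, beside 3.78% of all genes lower. With the replicate block 4 of 16 were lower, beside 1065 of 11838 genes. Against the mean of 1 and 3 days 0 of 15 were called. In pooled tissue, fewer cells of a type and less RNA per cell cannot be told apart. S100a9 (−1.36) and S100a8 (−0.97), both neutrophil genes, led, followed by Ptprc, the pan-leukocyte CD45 (−0.70), and Cd74, the invariant chain of class II molecules (−0.53). The Kupffer cell genes Vsig4 (−0.47), Cd5l (−0.47) and Clec4f (−0.45) and the macrophage receptor Csf1r (−0.29) fell as well. Cd74 was lost without array 2 (−0.55, adjusted p = 0.069) or array 3 (−0.36, adjusted p = 0.16) and Csf1r without array 2 (−0.32, adjusted p = 0.053) or array 3 (−0.22, adjusted p = 0.14). The F4/80 gene Adgre1 (−0.31) and Lyz2 (−0.33) did not pass the test.

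The summed intensity of the 17 markers with a probe ran from 20880 to 24980 in the control channel and from 16470 to 17890 with MgH2, log2 ratios of −0.32, −0.34 and −0.48, and the B cell marker Cd79a was not above background on any array. The hepatocyte markers moved the other way, with 6 of 10 called higher and 0 lower and a median of 0.25. Their summed intensity gave ratios of 0.19, 0.27 and 0.29, from 1080000 to 1311000 in the control channel and 1301000 to 1603000 with MgH2, and 4 were called with any 1 array left out. Alb, albumin, which labels the tissue as liver, was bright on every array and rose by 0.41 ± 0.04 (0.37, 0.43 and 0.43). The part of these shifts in the interferon, lipogenic and other lists was not tested.

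Of the other cell markers, 3 of 9 stellate cell and fibroblast genes were called lower, Lrat, which stores vitamin A (−0.44), Col3a1 (−0.42) and Col1a1 (−0.39), and 0 higher. The call of Col1a1 was lost without array 2 or array 3 (adjusted p = 0.16 in both). Among 9 endothelial genes Lyve1, the hyaluronan receptor of sinusoids, rose (0.80, 0.60 and 0.63, mean 0.68 ± 0.09) and Clec4g (−0.35), Oit3 (−0.22) and Fcgr2b (−0.22) fell. Clec4g was lost without array 1 (adjusted p = 0.052), Fcgr2b without array 1 (adjusted p = 0.098) or array 3 (adjusted p = 0.10) and Oit3 without any 1 of the arrays (adjusted p from 0.052 to 0.12).

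Blood cell genes had no common direction on the arrays, at medians of −0.95, 0.54 and −0.32, and Alas2, the heme synthesis enzyme of red cells (−0.70 ± 0.091), was the 1 of 8 called. Of the adipocyte markers Cfd was called, Retn, resistin, was at 0.42, −1.66 and −2.41 (adjusted p = 0.14), Fabp4 was at −0.01, and the defining genes Adipoq, Lep and Plin1 were not above background on any array. Neither the 3 tested cholangiocyte markers nor the 4 tested pancreas markers were called, and Epcam and Cftr and 8 pancreas enzymes were not above background.

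**Figure D4:**
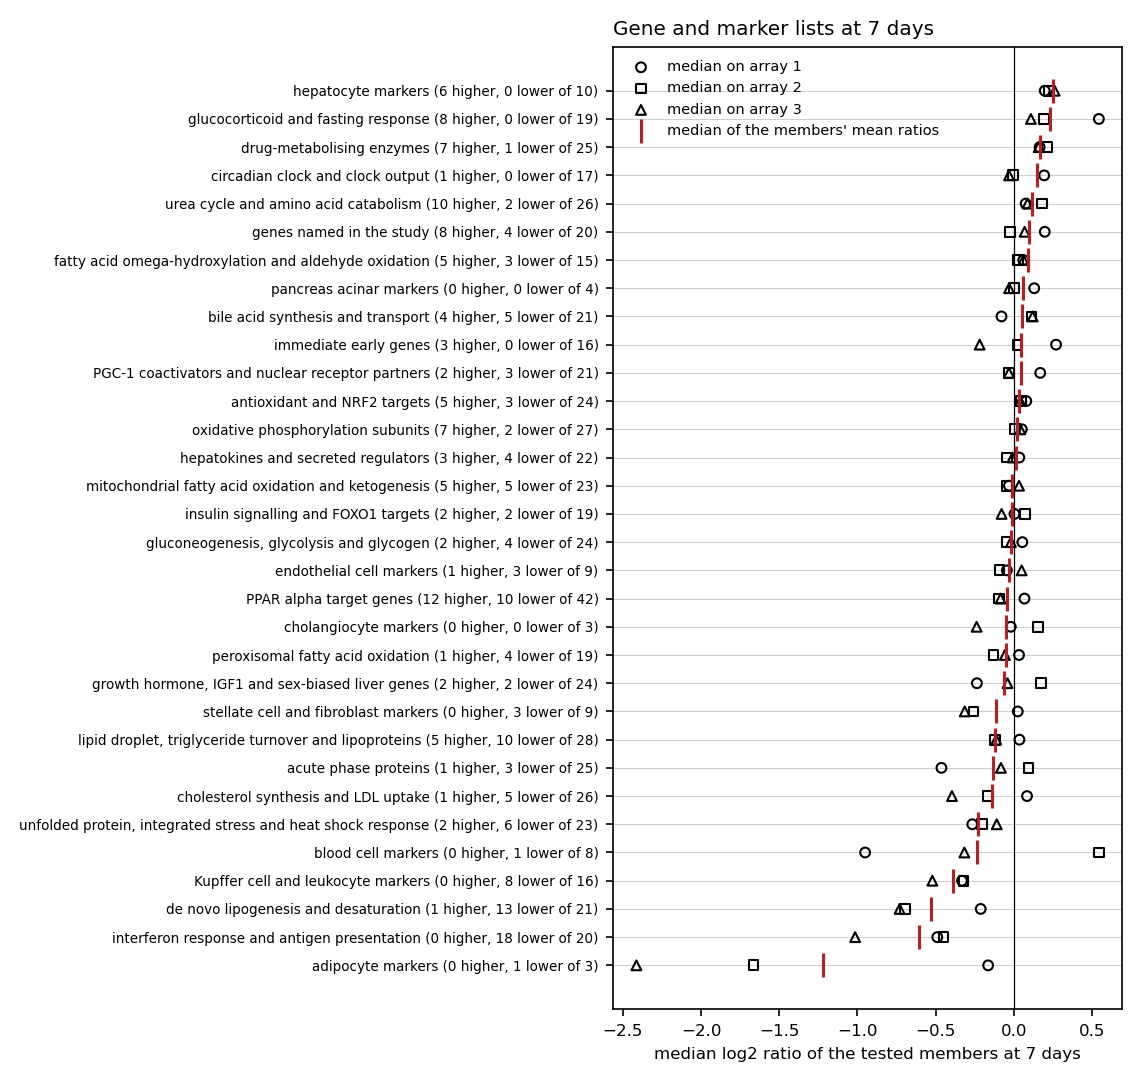
Median log2 ratio of the tested members of each gene or marker list at 7 days, with the 3 arrays as open symbols and the median of the members' means as a red bar, and the counts called beside each name. The interferon and lipogenesis lists lie lowest of the pathway lists, at −0.61 and −0.53, and the glucocorticoid list highest, at 0.23.

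Genes of the glucocorticoid and fasting response were on the higher side. Of 19 tested members 8 were called higher and 0 lower, with a median of 0.23 (0.54, 0.19 and 0.11 on the arrays), and 3 to 4 were called higher with 1 array left out. With the replicate block 7 were higher and 1 lower. Fkbp5, a chaperone of the glucocorticoid receptor and its sensitive target, had ratios of 0.95, 0.77 and 0.68 (0.80 ± 0.094, adjusted p = 3.7e-04). Mt1 (1.02), Lpin1 (0.68), Angptl4 (0.59), Sgk1 (0.44), Pck1 (0.31), Tat (0.26) and Tdo2 (0.23), the latter 2 enzymes of amino acid breakdown, were the others. Among the 11 members not called were Tsc22d3 (0.41, −0.14 and 0.11), Mt2 (0.50, 1.01 and 0.02), Igfbp1 (0.61, 0.74 and −0.26) and G6pc (−0.01, −0.35 and 0.01). The sensitivity of Lpin1, Angptl4 and Pck1 to single arrays is given above.

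In the urea cycle and amino acid catabolism 10 of 26 members were called higher and 2 lower (median 0.12), with 7, 4 and 3 higher when arrays 1, 2 and 3 were left out. Got1, the cytosolic aspartate aminotransferase, had ratios of 0.83, 0.47 and 0.92 (0.74 ± 0.14, adjusted p = 0.0034). Aass, which starts lysine breakdown, rose by 0.46 ± 0.072, the ornithine carrier Slc25a15 by 0.33 ± 0.072 and the urea cycle enzyme Ass1 by 0.28 ± 0.043. Glul, the glutamine synthetase of hepatocytes around the central vein, fell by 0.37 ± 0.086. Hpd (0.21), a tyrosine catabolic enzyme, was lost without array 2 (adjusted p = 0.14) or array 3 (adjusted p = 0.17), Slc25a15 without array 3 (adjusted p = 0.064) and Glul without array 1 (adjusted p = 0.069).

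Drug-metabolising enzymes were mostly on the higher side, with 7 of 25 called higher and 1 lower (median 0.17), and 5, 3 and 3 higher without arrays 1, 2 and 3. With normexp and loess 11 were higher and 1 lower, and with the replicate block 9 and 3. Cyp2a4 (0.52), Por, the reductase that feeds electrons to all microsomal P450 enzymes (0.51), Cyp3a11 (0.38), Cyp3a25 (0.31) and Cyp2e1 (0.28) were among them. Cyp2a4 and Por lost their calls without any 1 of the arrays (adjusted p from 0.061 to 0.10 and from 0.066 to 0.19), Cyp3a11 without array 2 (adjusted p = 0.10) or array 3 (adjusted p = 0.16) and Cyp2e1 without array 3 (adjusted p = 0.061). The bile acid list held 4 higher (7 with the replicate block) and 5 lower of 21, with Slco1a4, an organic anion uptake carrier, as its largest rise (0.69, 0.73 and 1.14, mean 0.85 ± 0.16).

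In cholesterol synthesis and LDL uptake, 5 of 26 were lower and 1 higher (median −0.14), and 2 were lower without array 3. Mvd, an enzyme of the mevalonate pathway, fell by 0.93 ± 0.17 and Stard4, a sterol carrier, by 0.54 ± 0.12, the last lost without array 3 (−0.44, adjusted p = 0.062). Insig2, which holds SREBP in the endoplasmic reticulum, was at 0.66 ± 0.18 and was lost without any 1 of the arrays (adjusted p from 0.051 to 0.12).

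In the unfolded protein, integrated stress and heat shock list 6 of 23 were lower and 2 higher (median −0.23), and 1 was lower without array 1 and 2 without array 2. The chaperone Hsph1 (−0.72 ± 0.17), the secreted stress proteins Creld2 (−0.69 ± 0.20) and Manf (−0.64 ± 0.15) and the factor Xbp1 (−0.36 ± 0.083) led, and each lost its call without array 1 (adjusted p = 0.077, 0.14, 0.055 and 0.059), Hsph1 and Manf also without array 2 (adjusted p = 0.059 and 0.053) and Creld2 without any 1 of the arrays. Hspa5, the main chaperone of the endoplasmic reticulum, was not called (−0.20).

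Antioxidant and NRF2 target genes, of interest because H2 has been described as an antioxidant, had 5 of 24 members higher and 3 lower at 7 days, with a median of 0.03. With normexp and loess 10 were higher, with the replicate block 7 were higher and 6 lower, and 3 to 4 were higher with 1 array left out. Hmox1, heme oxygenase 1, had ratios of 0.81, 0.46 and 0.49 (0.59 ± 0.088, adjusted p = 0.0012), and Cbr1, carbonyl reductase, 0.45, 0.43 and 0.45 (0.44 ± 0.065). Gsta1, a glutathione transferase, was at 0.39 and lost its call without any 1 of the arrays (adjusted p from 0.063 to 0.17). G6pdx, the first enzyme of the pentose phosphate path, fell by 0.34 and lost its call without array 2 (adjusted p = 0.080) or array 3 (adjusted p = 0.12). Oxidative phosphorylation subunits had 7 of 27 higher and 2 lower, all between −0.17 and 0.21. They were 4 higher and 5 lower with channels divided by their totals, 4 and 2 with centred arrays, and 4 higher with any 1 array left out.

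Of 22 tested hepatokines and secreted regulators 3 were called higher and 4 lower, against 16.5% and 14.9% of all genes. Of 16 tested immediate early genes 3 were higher and 0 lower. Beside Inhbb, Gdf15, a stress hormone, fell (−1.05, −0.50 and −1.19, mean −0.91 ± 0.22), as did Inhba, another activin subunit (−0.55 ± 0.13). Gdf15 was lost without array 1 (adjusted p = 0.066) or array 3 (adjusted p = 0.084) and Inhba without array 1 (adjusted p = 0.090) or array 2 (adjusted p = 0.069). Gadd45a, a growth arrest gene on the FOXO1 list, fell by 1.02 ± 0.17 (−0.80, −1.03 and −1.22). Klf4 rose by 0.85 ± 0.16, and Myc was at 0.66 ± 0.19 and was lost without any 1 of the arrays (adjusted p from 0.051 to 0.14). Of 17 clock genes 1 was called, the repressor Cry2 (0.36 ± 0.076), and with the replicate block 5 were higher and 1 lower. The serum amyloid genes Saa1 (−3.39, −0.18 and −0.72) and Saa2 (−4.09, −0.09 and −0.65) fell far on array 1 alone and were not called, with 1 of 25 acute phase genes higher and 3 lower. With the replicate block 3 were higher and 12 lower, and without array 1 no acute phase gene was lower.

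In gluconeogenesis, glycolysis and glycogen metabolism 2 of 24 were higher and 4 lower, and 4 and 6 with the replicate block. Pcx, pyruvate carboxylase, fell by 0.39 ± 0.06 and Pfkfb1, which sets the level of fructose 2,6-bisphosphate, by 0.36 ± 0.09, the latter lost without array 1 (adjusted p = 0.056) or array 3 (adjusted p = 0.090). Ppp1r3b, a glycogen targeting subunit of protein phosphatase 1, was at 0.61, 0.59 and 0.62 (0.61 ± 0.049). It was as high after 1 day (0.65), 3 days (0.55) and 14 days (0.50), and it belongs to the band of bright probes seen in the plot of ratio against signal. That band, with limits set after its values were seen, held 98 probes with a mean log2 signal over 12 and a ratio at 7 days between 0.55 and 1, and 97 were called higher, as their choice by this ratio makes likely. On all 12 arrays 85 of them were above 0.4, with array medians of 0.66 to 0.77 at 7 days, 0.63 to 0.74 at 1 day, 0.68 to 0.79 at 3 days and 0.51 to 0.54 in the 14-day group. For such probes dye and treatment cannot be told apart. Of the other named genes in the band, Angptl4, Got1, Insig2 and Plin5 were each below 0 on at least 1 array of another group.

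A few dim probes had the same pattern. Of 19 probes above background in the MgH2 channel alone, Ppef2 was at least 5.01-fold, Trim54 at least 4.56-fold and Nmrk2 at least 3.83-fold higher, but their mean ratios were 3.75, 3.57 and 3.19 after 1 day and 2.01, 2.05 and 1.40 in the 14-day group, so that they were high in every group. These genes were chosen after their values were seen. In the control channel alone 186 probes were above background, of which 1 reached a bound of 2-fold, against 12 of the 19 in the MgH2 channel. These bounds hold for the mean of the 3 arrays, not for each array.

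How far the pattern belongs to 7 days was tested on differences between groups of arrays. Against the mean of 1 and 3 days, 13 of 18978 probes were higher (0.0685%) and 37 lower (0.195%) at 7 days. With array 1, 2 or 3 left out, these counts ran from 0 to 24 and from 0 to 66, and with the replicate number as a block they were 231 and 364. Ly6d was 1.14 lower (adjusted p = 0.017), the Wnt effector Tcf7l2 was 0.57 lower and Ccny, a cyclin, 0.66 lower, while Map3k6, a stress kinase, was 0.68 higher and Grasp 0.49 higher. None of the genes of the lipogenesis and interferon lists was called in this contrast, in which 3 days, with list medians of −0.52 and −0.54, is part of the reference. With the replicate block 4 of the 21 lipogenesis genes were lower, among them Elovl6 (−0.90, adjusted p = 0.021) and Fasn (−0.81, adjusted p = 0.045), and 0 of the 20 interferon genes. Over all 11759 genes the block gave 163 higher and 209 lower.

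Within the slide that arrays 1 and 2 shared with 2 arrays of 3 days, no probe passed the limma test between 7 and 3 days (0 of 18978, 655 at an unadjusted p under 0.05). With 2 arrays on each side, whose numbers match only in part (2 and 3 at 3 days), this test cannot show that the times are alike.

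The difference from 1 day was examined after the values at 7 days had been seen. It called 6.98% of 19153 probes, 628 higher (3.28%) and 708 lower (3.7%). Without array 3 the counts were 69 and 129, without array 1 166 and 312, and without array 2 416 and 488. With the replicate number as a block they were 1513 and 1627, and with the slide as a fixed term 0 and 0, and no slide held arrays of both times. Counted by gene, 7.43% were called, 3.65% higher and 3.78% lower. That is 432 higher and 448 lower of 11838 genes, and with the block 1026 and 1065.

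Of the 21 lipogenesis genes 6 were lower than at 1 day and 0 higher, with a median difference of −0.59, and 13 were lower and 2 higher with the block. The log2 difference was −1.24 for Pklr (adjusted p = 0.013), −1.07 for Srebf1 (adjusted p = 0.013), −1.49 for Elovl6 (adjusted p = 0.036) and −1.1 for Scd1 (adjusted p = 0.046). Fasn had a difference of −1.65 and did not pass the test (adjusted p = 0.084, and 0.0051 with the block). The 3 arrays of 1 day were at 1.01, −0.91 and −0.25 for Fasn, a wide spread. Of the 20 interferon genes 2 were lower and 0 higher, Ifit1 by 1.01 (adjusted p = 0.035) and Oasl1 by 0.91 (adjusted p = 0.019), with a median difference of −0.52, and 11 were lower with the block.

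On the higher side, Inhbb was 1.33 above 1 day (adjusted p = 0.012) and Plin5 0.94 (adjusted p = 0.016). Cyp39a1, an oxysterol hydroxylase of bile acid synthesis, was 1.20 above (adjusted p = 0.0054) and Hmox1 0.83 (adjusted p = 0.012). Smaller differences were called for Fkbp5 (0.57, adjusted p = 0.035), Cpt1a (0.33, adjusted p = 0.019) and Alb (0.33, adjusted p = 0.015). Fabp1 was 0.78 lower (adjusted p = 0.0081). The block raised the counts over all genes (432 higher and 448 lower without it, 1026 and 1065 with it). It also raised those of urea cycle and amino acid genes (6 higher and 0 lower without it, 11 and 2 with it) and of drug-metabolising enzymes (4 and 0, then 11 and 1). Of the 24 antioxidant and NRF2 target genes 6 were higher and 1 lower than at 1 day, both without and with the block.

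Against 14 days of H2-water, 6.61% of 18674 probes were called, 589 higher (3.15%) and 645 lower (3.45%). By gene 7.46% were called, 3.56% higher and 3.9% lower. Without array 3 the counts were 47 and 57, without array 1 306 and 424, and without array 2 387 and 425. The source of H2, the control, the time, the slide and the software version all differ between these groups and cannot be told apart. The log2 difference of 7 days of MgH2 from 14 days was −2.13 for Fasn (adjusted p = 0.040), −1.65 for Elovl6 (adjusted p = 0.029) and −1.53 for Scd3 (adjusted p = 0.018), and 9 of 20 lipogenesis genes were lower and 0 higher. Il17d was 1.07 higher (adjusted p = 0.0013), Fam222a 2.01 higher (adjusted p = 0.018), Myc 1.61 higher (adjusted p = 0.015) and Pck1 0.71 higher (adjusted p = 0.013). Of the PPAR alpha targets 8 of 41 were lower and 1 higher.

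**Figure D5:**
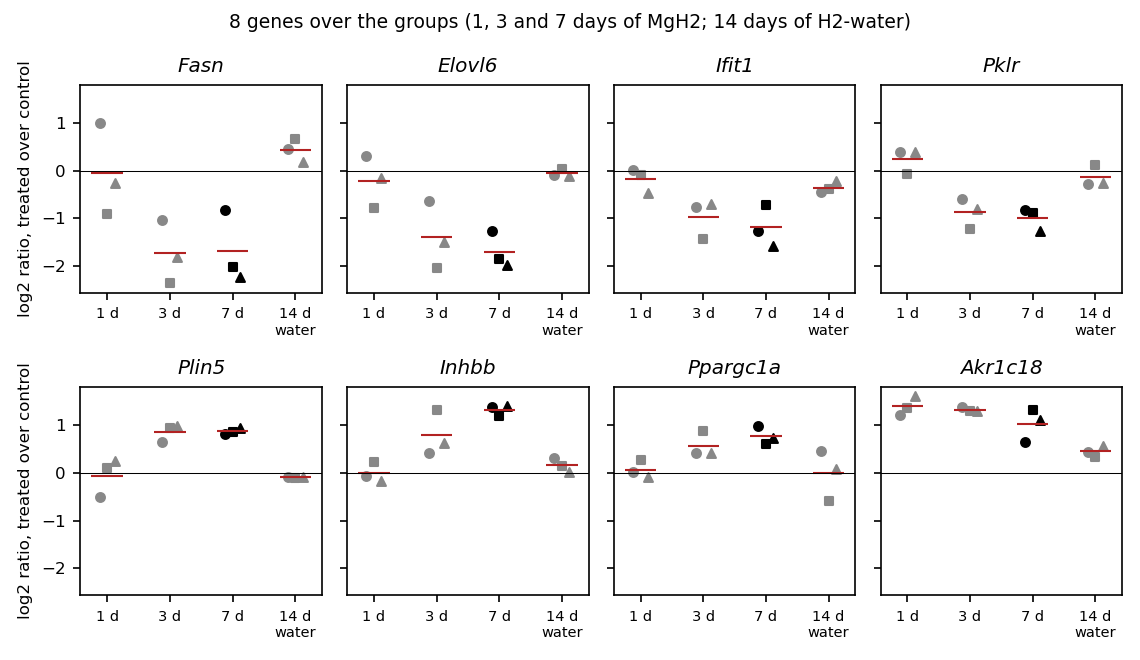
Log2 ratio of treated over control for 8 genes on each of the 12 arrays, by group, with circles, squares and triangles for arrays 1, 2 and 3 and red lines for group means. Fasn, Elovl6, Ifit1 and Pklr are low after 3 and 7 days, Plin5 is high after 3 and 7 days, Inhbb and Ppargc1a are highest at 7 days, and Akr1c18 is high in all 3 MgH2 groups.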

How the data were processed

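Liver RNA was measured on 12 two-colour Agilent arrays, of which the 3 after 7 days of MgH2 are reported here. The processed intensities of both channels were background-subtracted and dye-normalized within each array by Feature Extraction and deposited by the authors without scaling between arrays. The file headers name version 10.10.1.1 for the MgH2 arrays and 10.7.3.1 for the 14-day arrays, and the submitters' processing notes name 10.10.1. The deposited raw median intensities served for an alternative background correction (normexp, offset 50, then loess). The same software gave the deposited log10 ratio (Cy5 over Cy3), which the log2 values in the authors' deposited table repeat on another scale. Both served as alternatives.

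Control spots and spots marked as outliers were left out, and repeat spots (up to 10 per probe) were averaged on the log2 scale. The ratios were used as deposited, since the normalization by array total in the study's methods leaves a ratio unchanged if 1 total served both channels, which the methods do not say (totals per channel were an alternative). A probe was tested where every array compared had it above background in Cy3 and Cy5. Of the probes, 26412 (67.0%) carried a symbol through their RefSeq record (20017 symbols), and a gene was represented by its brightest probe. All 12 arrays were fitted with limma 3.58.1 in R 4.3.3 with 1 mean per group, two-sided, with Benjamini-Hochberg adjustment over all probes tested and a threshold of 0.05. On simulated data with 200 of 19455 probes changed 1.5-fold, 79% were recovered with 11 false calls at 7 days. The simulated noise was independent between arrays and held no dye effect. The 11 false calls therefore give no error rate for the calls on the real arrays.

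The members and the gene lists were chosen with earlier results of these data known, and the lists are described by counts and medians. The rule for named genes took the 12 largest rises and 12 largest falls among probes called and of one sign on all 3 arrays, the 6 largest of each direction in the differences from the mean of 1 and 3 days and from 14 days, the genes named in the study, and from each list its called members (the 4 with the largest ratio where there were more) and its 2 brightest. Further members of a list are named to account for that list, and results of a few genes are not reported here.

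Same-numbered arrays of the MgH2 groups deviated together in their ratios (r from 0.410 to 0.655 between 7 days and 1 day and from 0.368 to 0.468 between 7 and 3 days), while arrays of different numbers did not (-0.433 to 0.053). Deviations were taken from the mean of the 3 arrays of a group. Positive values for same numbers therefore force the others below 0 on average, and the latter are no separate ground for pairing. From the same-number values the numbers were taken to pair the MgH2 arrays, on the data alone, and a replicate block was an alternative. For 7 and 14 days r was 0.035 to 0.288, and those arrays were not taken as paired. The alternatives were other scalings, background correction and filters, marked spots kept, other sets of arrays, the prior of the fit, the slide, the replicate block and each array left out. Promoters were taken from RefSeq (GRCm38.p6) by symbol.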

Additional observations from a re-analysis of the deposited data

Results flagged for a closer look

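The differences between 7 days and other groups of arrays, which drew these results for a closer look, were tested as contrasts of the limma fit. Against the mean of 1 and 3 days, 13 probes were higher and 37 lower at 7 days. The named genes of this contrast were Map3k6 (0.68), Flywch2 (0.64), Ppp4r4 (0.50), Grasp (0.49), Baiap2l1 (0.43), Dll1 (0.42) and Nrf1 (0.26), which were higher on the log2 scale, and Ly6d (-1.14), Xkr9 (-0.73), Ccny (-0.66), Cc2d2a (-0.63), Tcf7l2 (-0.57) and Slc45a4 (-0.51), which were lower. With the slide as a fixed term none of these passed the test.

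Against 14 days of H2-water, 589 probes were higher and 645 lower. Fam222a (2.01), Myc (1.61), Cyp39a1 (1.33), Map3k6 (1.28), Tceal5 (1.24), Thbd, the thrombin receptor of endothelium (1.20), and Pck1 (0.71) were higher. Fasn (-2.13), Kbtbd11 (-1.97), Elovl6 (-1.65), Scd3 (-1.53), Ly6d (-1.43), Acaa1b (-0.77), Dbi (-0.54) and Aldh3a2 (-0.53) were lower. Time, source of H2, slide and software version cannot be told apart in this contrast. No formal outlier test was made on groups of 3 arrays. The counts without each array are given above.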

How the results depend on the processing

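At 7 days the counts of 2973 probes higher and 2775 lower stayed within 1.5 times under rescaled or centred channels, normexp with loess, the deposited table, marked spots kept, the 9 MgH2 arrays, a trended prior, the slide as a random block and the replicate block. Without the filter on dim probes 6133 were higher, and with the 3 arrays of 7 days alone 1172 were higher and 1006 lower. The methods' t-test after adjustment called 40 and 20. Leaving out 1 array gave 1563 to 2153 higher and 1533 to 1907 lower. Channels divided by their totals gave 2370 and 3371. The replicate block, for which the pairing rests on the data, moved no count at 7 days by over 1.5 times. Of the named genes at 7 days it added calls for C3 (0.15), Ppara, Scp2 (-0.13) and Tef (0.22), among others, and took away that of Acox2. For 7 days against the mean of 1 and 3 days (13 higher, 37 lower) the counts were 6 and 17 with channels divided by their totals, 40 and 109 with normexp, 0 and 0 with the 9 MgH2 arrays, 1 and 0 without the filter, 67 and 144 with a trended prior, 231 and 364 with the replicate block and 98 and 181 with the slide as a random block, 22 higher with centred arrays, and 0 to 24 and 0 to 66 without 1 array. With the slide as a fixed term, chosen after seeing the data, they were 0 and 0. Against 14 days (589 and 645) they were 5626 and 1009 without the filter, 1161 and 1327 with the block, whose numbers do not pair these arrays, 1032 and 1091 with the slide as a random block, and 47 to 387 and 57 to 425 without 1 array. Against 1 day, a comparison chosen after seeing the data (628 and 708), they were 296 and 392 with the 9 MgH2 arrays, 49 and 60 without the filter, 1513 and 1627 with the block, 1274 and 1281 with the slide as a random block, 0 and 0 with it as a fixed term, and 69 to 416 and 129 to 488 without 1 array. The cause was not tested.

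Of the list medians 428 values over the alternatives moved by less than the spread between arrays and 20 by more. These were omega-hydroxylation (0.062 with totals, 0.025 with normexp, 0.066 to 0.094 without 1 array), NRF2 targets (0.0067, 0.060, 0.015 to 0.062), oxidative phosphorylation (-0.0046, 0.045, 0.0099 to 0.051), drug-metabolising enzymes (0.22 with normexp, 0.13 as the mean of all probes, 0.14 to 0.21), hepatocyte markers (0.38 with normexp, 0.21 to 0.28), Kupffer cell and leukocyte markers (-0.27 with normexp), pancreas markers (0.26 without the filter), insulin and FOXO1 targets (-0.018 to 0.071 without 1 array) and clock genes (-0.019 to 0.25 without 1 array). Of the values of named genes over the alternatives 233 lost their call and 23 gained one, and Acaa2, a mitochondrial thiolase, turned to 0.11 with normexp.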
